A study of Xenopus laevis with 12 samples.

Results

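Animal caps, which are explants of ectoderm from Xenopus laevis embryos, were compared at late gastrula with and without injected Geminin RNA. The comparison holds 6 of the 12 arrays of the series, chosen by their stage and manipulation labels: 3 arrays of xGem injected explants at stage 12 and 3 of uninjected explants at stage 12, 1 of each in every experiment (E1, E2 and E3). Pigmented embryos made by in vitro fertilisation received 300 pg of xGemininΔcoil RNA, a Geminin named as lacking its coil, in the animal hemisphere of both cells of the 2-cell stage. The labels leave it unsaid whether 300 pg went into each cell or was shared between them. Each sample pooled 80 caps, cut at stage 8-9 and kept in 0.7X MMR at 25 ºC until whole embryos reached stage 12, and 20 μg of total RNA was isolated. No genotype or transgene is named for either group. The controls were not injected, and none of the 12 arrays holds explants injected with another RNA. Effects of injection itself thus cannot be told apart from those of Geminin. The other 6 arrays are the same groups at stage 10.5, early gastrula, and served for the shared estimate of the spread and for a comparison of the stages.

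Full-length Geminin is a nuclear protein that binds the licensing factor Cdt1 and so keeps DNA from being replicated more than once per cell cycle. It also binds chromatin regulators, and in frog embryos it has been studied for its part in the choice between neural and non-neural fate. Whether the injected form, named as lacking its coil, binds Cdt1 was not tested here. Animal cap cells of the blastula can form many tissues. Left alone they become epidermis under bone morphogenetic protein (BMP) signalling, with goblet cells, multiciliated cells and ionocytes among the later cell types. Where BMP is blocked they turn to neural tissue, and intermediate BMP levels go with the neural plate border. Gastrula cells also still hold RNA made in the oocyte, which is cleared step by step while the embryo's own genes come into use.

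The injected gene was read on its L copy, the form on the long chromosome of each homeologous pair of this allotetraploid frog, and on its S copy. As deposited, gmnn.L read 3203, 13754 and 13436 in E1, E2 and E3 with Geminin RNA, and 116, 278 and 4576 without it. The library labelled uninjected E3 thus lay far above the other uninjected libraries for gmnn.L and close to injected E1. After quantile normalisation the injected values were 3520.0, 9407 and 9407, where the last 2 are the top of the scale, and the uninjected values were 170.3, 277 and 3477. The gmnn.S probe set read 215, 517 and 495 in injected and 78.1, 261 and 235 in uninjected explants, so uninjected E3 did not stand apart there. Within the pairs the gmnn.L difference was 4.25, 5.01 and 1.43 (log2). Because 2 injected arrays sit at the top of the scale, the fitted difference is given as a bound, at least 11.8-fold higher over the 3 pairs (adjusted p = 0.000577, limma), which includes uninjected E3. The gmnn.S difference was 1.09 ± 0.13 (log2, limma's SE, n = 3 pairs, adjusted p = 0.000114). Which embryos or RNA gave the E3 signal was not tested.

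**Figure D1:**
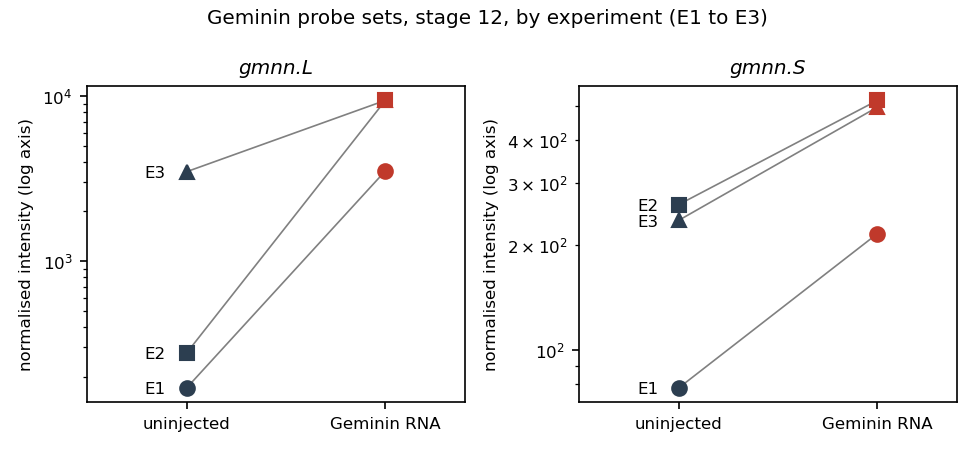
Normalised intensity (log axis) of the gmnn.L and gmnn.S probe sets in uninjected and Geminin explants at stage 12, with a line for each experiment. Uninjected E3 lies at 3477 for gmnn.L, against 170.3 and 277 in the other uninjected arrays, and beside E2 for gmnn.S.

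Arrays of E2 and E3 were nearly alike, with Pearson r over all tested probe sets of 0.990 between the uninjected and 0.982 between the injected arrays, while arrays of E1 correlated with them at 0.887 to 0.919. The labels do not tell whether E2 and E3 used different embryo batches, so the 3 pairs may hold fewer than 3 independent ones. Changes in E1 were larger: 2721 probe sets differed at least 2-fold within that pair, 1168 in E2 and 820 in E3. Over the 1466 probe sets at least 2-fold higher in the E1 pair, the median difference was 0.62 in E2 and 0.47 in E3 (log2). Over the 1255 that were at least 2-fold lower in E1, it was -0.99 and -0.85. Both sets were picked by their change in E1, where the medians were 1.33 and -1.48. That choice favours smaller medians in E2 and E3. In these same sets uninjected E3 minus uninjected E2 had medians of 0.08 and -0.03, against 0.00 over all probe sets.

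Ectoderm markers were among the brighter probe sets, with exceptions. In uninjected explants krt12.4.L, a keratin of the epidermis, was at 4498, 2365 and 2208 and the epithelial adhesion gene epcam.S at 2466, 1697 and 1689, above 98.4% and 96.7% of all tested probe sets. The epithelial cadherin cdh1.S was at 187, 288 and 274, above 64.9%, and zic2.L was the dimmest of the 12 ectoderm markers read, above 29.3%. Of 9 markers of other tissues picked by hand, the organizer gene gsc.L ranked highest, above 35.0% and so over zic2.L. Among the same 9, gata5.S of endoderm stood above 26.6%, and sox17b.1.S was lowest, above 2.5%. The 9 leave out brighter members of the lists below, such as the muscle gene tnni2.S, at 639, 418 and 362 in uninjected explants. Summed levels of markers of other tissues were compared over whole lists. The 17 mesoderm genes summed to 1209 to 1335 in injected and 1423 to 1671 in uninjected explants, with tbxt.S and eomes.L near the floor in both. That lower sum rests on the fast skeletal troponin gene tnni2.S, at 50.2, 28 and 51.5 against 639, 418 and 362 (-3.03). Without it the other 16 genes summed to 1159 to 1284 in injected and 1032 to 1131 in uninjected explants, higher in all 3 pairs. These 16 include the maternal gene vegt.L, at 119, 149 and 102 in injected and 8.65, 23.7 and 26.4 in uninjected explants. In E1 and E2 the rise of vegt.L was about as large as that of the sum. The sum without both genes was not taken. The 9 endoderm genes summed to 393 to 502 against 459 to 525, the 4 organizer genes to 196 to 280 against 365 to 469, and the 6 germ plasm genes to 1030 to 1307 against 835 to 953. The 8 blood genes summed to 1107 to 2058 against 951 to 1530 and were higher in injected explants within all 3 pairs, or in 2 without the globin gene hba-l5.L. The part of such cells in the results below was not tested.

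Across the transcriptome 2733 of 11618 tested probe sets were higher (23.5%) and 2048 were lower (17.6%) in Geminin explants by limma's paired fit with Benjamini-Hochberg adjustment at 0.05. Changes of at least 2-fold were fewer and leaned the other way, with 440 higher (3.79%) and 768 lower (6.61%). The groups of 3 did not overlap for 2447 probe sets that were higher (21.1%) and 1943 that were lower (16.7%). With 1 probe set per gene symbol, the unit of all gene lists below, 1632 of 6146 symbols were higher (26.6%) and 1035 were lower (16.8%), with a median difference of 0.12. Counts in a list are to be read against these shares, and L and S copies count separately. Some genes stand in more than 1 list, so the lists are not separate sets. Without the pairing as a block 1509 probe sets passed, and without the block and uninjected E3 1162 did.

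Among the genes ranked 11 to 25 by their fall, several belong to the outer ectoderm and its secretory and transporting cells. The T-box repressor gene tbx3.S was at 29.99, 32 and 40.1 in injected explants and 413, 249.6 and 268 in uninjected explants, and fell by 2.68 ± 0.2 on the log2 scale. The related tbx2.L was at 42.2, 23.1 and 21.9 against 322, 176 and 181 and fell by 2.4. For both genes every injected array lay far below every uninjected array.

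Intelectin itln1.L, a lectin that goblet cells release into mucus, was at 475, 189 and 489 in injected and 3839.9, 1666 and 1488 in uninjected explants and fell by 2.53 ± 0.27. The disulfide isomerase gene agr2.S, needed in mammals for mucin folding, was at 169, 102 and 144 against 956, 849 and 749 and fell by 2.51 ± 0.22. The forkhead gene foxi1.L, a regulator of ionocyte fate, was at 16.3, 72.7 and 36.2 against 238, 289.9 and 289 and fell by 2.44 ± 0.31. Uninjected E1 was the highest array for itln1.L and agr2.S and the lowest of the uninjected arrays for foxi1.L.

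The receptor tyrosine kinase gene kit fell in both copies, kit.S (-2.67) and kit.L (-2.46). The kit.L probe set was at 18.6, 6.65 and 5.24 against 221, 91.7 and 92.3, so its injected level in E3 was under the 5th percentile of all values (5.59) and low signal bounds the fall. A second kit.S probe set gave -0.39 and did not pass. The LIM-only gene lmo4.2.L was at 105, 166 and 238 against 628, 1084 and 1147 and fell by 2.4 (-1.66 on a second probe set).

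Enzyme genes made up much of the rest. The creatine synthesis gene gatm.L was at 117, 289 and 232 against 1448, 1353 and 1283 and fell by 2.67, though a second probe set of the gene gave 0.03. The retinoid isomerase gene rpe65.S was at 71.7, 75.9 and 140.1 against 754, 570.2 and 569.7 and fell by 2.57. The phosphodiesterase gene gdpd1.L fell by 2.47, the sulfotransferase gene sult6b1.5.L fell by 2.43 and the calpain protease gene capn8.1.L fell by 2.49. The remaining members were otogl2.L (-2.58, and -0.52 and -2.22 on its other probe sets) and fam3d.S (-2.52). All 15 had groups that do not overlap (16.7% of all tested probe sets), with adjusted p from 6.59e-06 to 0.000261 in limma's paired fit. The genes were picked for passing and for large falls, so neither is further support. Uninjected E1 was the highest uninjected array for 12 of the 15, and the E1 pair showed the largest change for 10.

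Rises at ranks 11 to 25 included genes known from oocytes and eggs. The kinase gene wee2.L, whose product holds back Cdk1 in oocytes, was at 697, 964 and 738 in injected and 136, 241 and 234 in uninjected explants and rose by 1.92 ± 0.16. The RNA-binding protein gene patl2.L was at 113, 166 and 119 against 17.2, 29.1 and 34.6 and rose by 1.8 ± 0.21. The maternal T-box gene vegt.L, which in Xenopus directs endoderm and mesoderm, was at 119, 149 and 102 against 8.65, 23.7 and 26.4 and rose by 1.99 ± 0.21. The groups do not overlap for any of these genes.

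The zinc finger gene zic2.L, active in early neural ectoderm, was at 353, 359 and 199.6 against 37.5, 80.1 and 88 and rose by 1.93 ± 0.24. The endoplasmic reticulum (ER) shaping gene reep6.L was at 529, 548 and 417 against 63.1, 189.6 and 184 and rose by 1.78, and the DNA end-joining gene nhej1.S was at 291, 286 and 241 against 34.9, 84 and 89 and rose by 1.83. In reep6.L and nhej1.S, uninjected E1 was below the other uninjected arrays while the injected arrays were close together.

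The further rises were in pik3r3.S (2.0), a regulatory subunit gene of PI3-kinase, the tetraspanin gene tspan1 in both copies (1.91 for S and 1.75 for L), the centrosome gene cep20.L (1.87), the chondroitin sulfotransferase gene chst13.S (1.8, and 1.31 on a second probe set), stk35.S (1.77), a kinase gene, cbwd1.1.S (1.77), the WASH complex gene washc3.L (1.77) and the Kelch gene klhdc10.L (1.73). All 15 had groups that do not overlap (21.1% of all tested probe sets), and limma's adjusted p ran from 2.15e-05 to 0.0011. As with the falls, the selection for passing and for large changes favours both. Uninjected E1 was the lowest uninjected array for 12 of them, and the E1 pair changed most for 13. In the E3 pair their differences ran from 0.85 to 2.11.

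**Figure D2:**
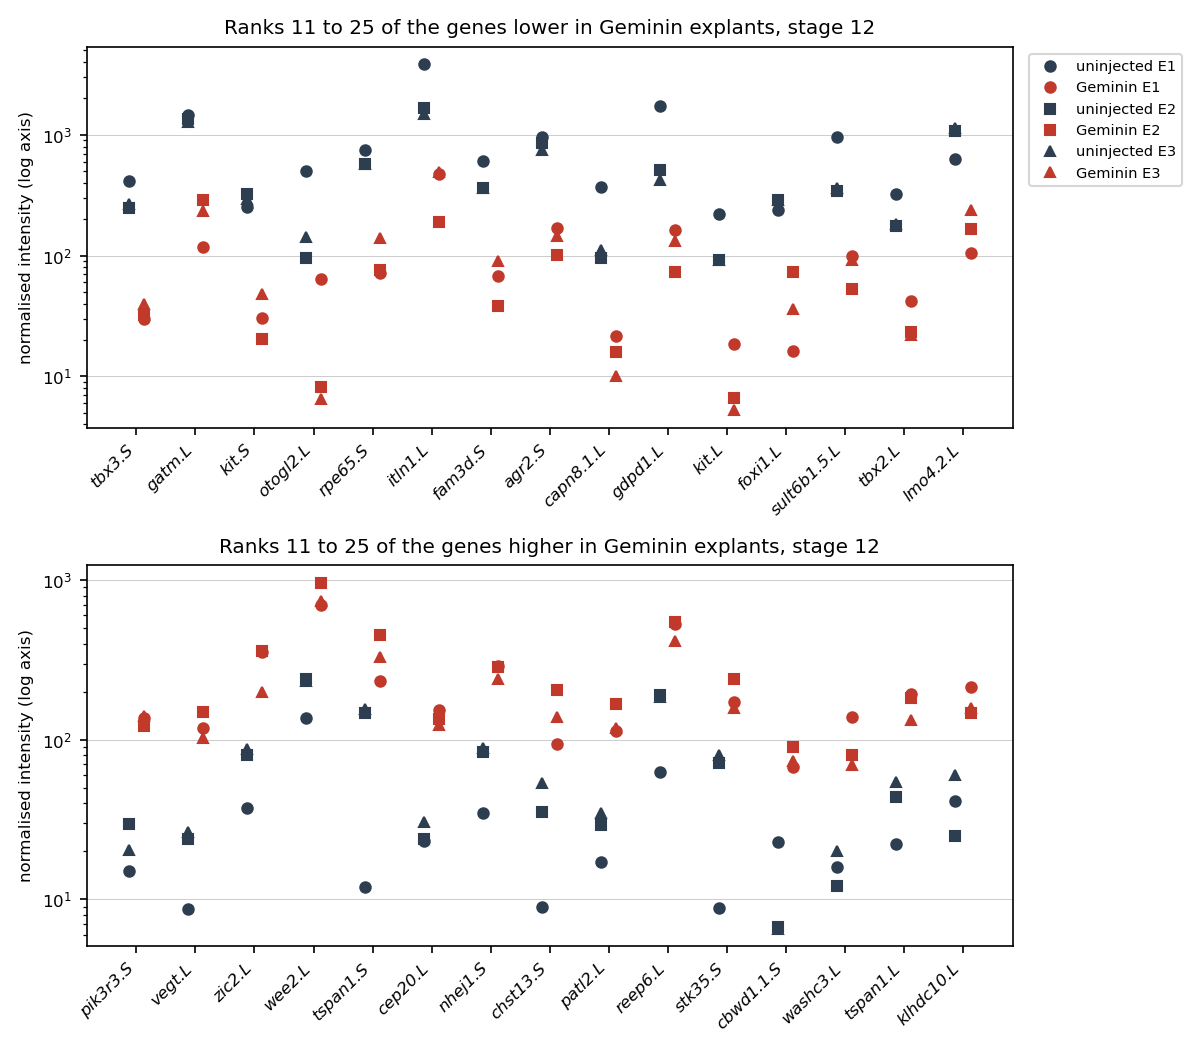
Normalised intensity (log axis) in each of the 6 stage 12 arrays for the genes ranked 11 to 25 among falls (top) and rises (bottom); marker shape gives the experiment. No injected array overlaps an uninjected array for any of the 30 genes, which were picked for large changes that passed. Uninjected E1 is the lowest uninjected array for 12 of the 15 rises.

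Genes of differentiated cell types of the epidermis were mostly lower in Geminin explants. In bulk RNA, fewer cells of a type and less RNA per cell cannot be told apart. Of 36 tested genes of multiciliated cells, the cells that beat cilia on the skin of the larva, 22 were lower and 2 higher, with a median of -0.68. The axonemal gene cfap161.L was at 20.8, 12.43 and 21.7 in injected and 163, 162 and 108 in uninjected explants, and fell by 2.21 ± 0.19 (adjusted p = 2.39e-05). The radial spoke gene rsph9.L fell by 1.54, cfap52.L fell by 2.22 and foxn4.S, which acts with the multiciliation programme in Xenopus, fell by 1.56. Members that rose were dnaaf5.L (0.72), a dynein assembly factor gene, and ift27.L (0.47), a gene of intraflagellar transport. The values of e2f4.S (0.03), a cofactor in multiciliated cells that also acts in the cell cycle, and of spef1.S (-0.05) did not pass. The summed level of the list was 7076 to 8599 in injected and 14070 to 17120 in uninjected explants. Without the block 19 genes were lower, and 16 when uninjected E3 was also left out.

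Of 10 genes of goblet and small secretory cells 6 were lower and 2 higher. Beside agr2 and itln1, the mucin glycosyltransferase gene galnt16.L fell by 0.83 and the forkhead gene foxa1.S, a factor of small secretory cells, fell by 0.69. The monoamine transporter gene slc18a2.L, of those same cells, rose by 1.04 and galnt11.L by 0.77. Of 9 ionocyte genes 5 were lower and 2 higher. The carbonic anhydrase gene ca12.L was at 87, 84.8 and 85.5 against 274, 277 and 207 and fell by 1.39, tfcp2l1.S fell by 0.95 and the proton pump subunit gene atp6v0d2.L fell by 0.89. Those that rose, atp6v0d1.L (0.7) and atp6v1a.L (0.54), encode pump subunits that most cells use.

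Of 42 keratin and junction genes 17 were lower (40.5%) and 11 higher (26.2%). Only the lower share stood above that of all symbols (16.8% lower and 26.6% higher). The keratin krt12.4.L was at 1091, 716 and 786 in injected explants, against the uninjected levels given above, and fell by 1.73 ± 0.23. The cytolinker gene ppl.L (periplakin) fell by 2.14 (-1.48 on a second probe set), the plakophilin gene pkp3.S fell by 1.59, pkp2.L fell by 1.12 and cdh1.S fell by 1.46, to 49.7, 86.7 and 112. Claudin genes that rose were cldn6.1.L (1.21), cldn5.L (1.19) and cldn6.2.S (0.58). The plakoglobin gene jup.L (-0.05), a part of the same junctions, did not pass. On leaving out the block and uninjected E3, 4 keratin and junction genes were lower and 2 higher.

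Genes of the neural plate border, placodes and neural crest were lower in 20 of 27 cases and higher in none, with a median of -0.92. The homeobox gene msx1.S was at 82.5, 105 and 99.3 against 417, 459 and 416 and fell by 2.0 ± 0.17, and msx1.L fell by 1.91. The Tfap2 inhibitor gene kctd15.L fell by 1.87, while sox9.S (0.17) and ets1.L (-0.08), both crest regulators, did not pass. Without the block and uninjected E3 9 genes were lower.

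The neural plate list split evenly, 7 higher and 7 lower of 21 (33.3% each). Over all symbols 26.6% were higher and 16.8% lower, so the lower share departed more. The copies zic2.S (1.0, 1.46 on a second probe set), sox3.S (1.29) and otx1.L (1.37), the last a gene of the anterior plate, rose. The levels of otx1.L were 240.1, 319.7 and 235 against 26.3, 178 and 137. Those that fell included sall1.L (-1.25, -1.84 on a second probe set), sox2.L (-1.24), the RNA-binding protein gene msi1.S (-1.27) and irx2.L (-0.76). The sox3 and sox2 genes, both SoxB1 factors of neural progenitors, thus differed in direction. The pou3f1.L (-0.09) and six3.L (-0.16) values did not pass.

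Both Delta genes named by the rule, which encode ligands of Notch, fell. The dlc.L gene was at 24.2, 19 and 6 in injected and 135, 83.1 and 123 in uninjected explants and fell by 2.02 ± 0.24, and dll1.L was at 170.0, 271 and 270.2 against 1057, 1059 and 1100.0 and fell by 2.13 ± 0.25. The Notch target genes hes5.6.L and hes4.L fell (-1.52 and -0.95). The jagged ligand gene jag1.L rose by 0.53, and the receptor gene notch1.S (0.02) did not pass. In the whole list of neuronal and Notch genes 10 of 33 were lower and 3 higher, the largest rise being in the neuroendocrine factor gene insm1.L (1.43). The neuronal RNA-binding gene elavl4.L was at -0.01, not passing.

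Genes of uncommitted ectoderm, including those of pluripotency, were lower in 12 of 19 cases and higher in 4. The Krüppel-like gene klf2.S was at 61.7, 125 and 92.2 against 369, 332 and 386 and fell by 1.84, and ventx1.1.L fell by 1.4 although another probe set of it rose by 0.41. The POU gene pou5f3.3.L, a maternal homologue of mammalian Oct4, rose by 2.31, the let-7 regulator lin28b.S by 0.86 and sox3.L by 0.97. Its relative pou5f3.2.L, expressed by the embryo, was at -0.04 and did not pass.

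In the BMP pathway 33 of 48 genes were lower and 5 higher, with a median of -0.94. Among ligands, bmp7.1.L was at 66.6, 69.4 and 133 in injected and 467, 408 and 329.5 in uninjected explants and fell by 2.03 ± 0.23, while bmp2.L rose by 0.73. Of the genes acting on ligand or receptor, the protease gene bmp1.L rose by 0.74 and the activin and BMP receptor gene acvr2b.L by 0.65. The effector gene smad1.S rose by 0.44, with 0.30 on a second probe set that did not pass, and the co-repressor ski.S was at -0.21, also not passing. Target genes that fell included gata3.S, at 79.1, 149.5 and 151 against 646, 707 and 769.6 (-2.39 ± 0.29), id4.S (-1.47) and id2.L (-1.08). Without the block 23 were lower and none higher, and without the block and uninjected E3 17 were lower and none higher.

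Wnt and FGF genes showed no common direction. Of 44 Wnt genes 9 were lower (20.5%) and 6 higher (13.6%), against 16.8% and 26.6% over all symbols. Receptor genes moved apart, with fzd7.L higher (1.17, and 0.95 to 1.48 over its other probe sets) and fzd4.S lower (-0.95), while the transducer gene dvl3.L fell by 1.63 and wls.L, which carries Wnt proteins out of the cell, rose by 0.81. The transcription factor genes tcf7.S and tcf7l1.L changed by 1.52 and -0.88. Among genes of FGF, ERK and retinoic acid 8 of 31 were higher (25.8%) and 7 lower (22.6%). The retinol dehydrogenase gene rdh10.L, a step in making retinoic acid, was at 165, 217 and 205 against 610.1, 911 and 979.6 and fell by 1.99 ± 0.14. The retinoic acid receptor gene rara.L and the degrading enzyme gene cyp26a1.S rose by 0.86 and 0.8. The ERK phosphatase gene dusp1.L and the receptor gene fgfr4.S fell (-1.47 and -1.07). Of 9 Nodal and TGF-beta genes 4 were higher, among them smad2.L (1.02), tgfbr1.S (1.0) and the Nodal co-receptor gene tdgf1.3.L (1.03), and 2 were lower.

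**Figure D3:**
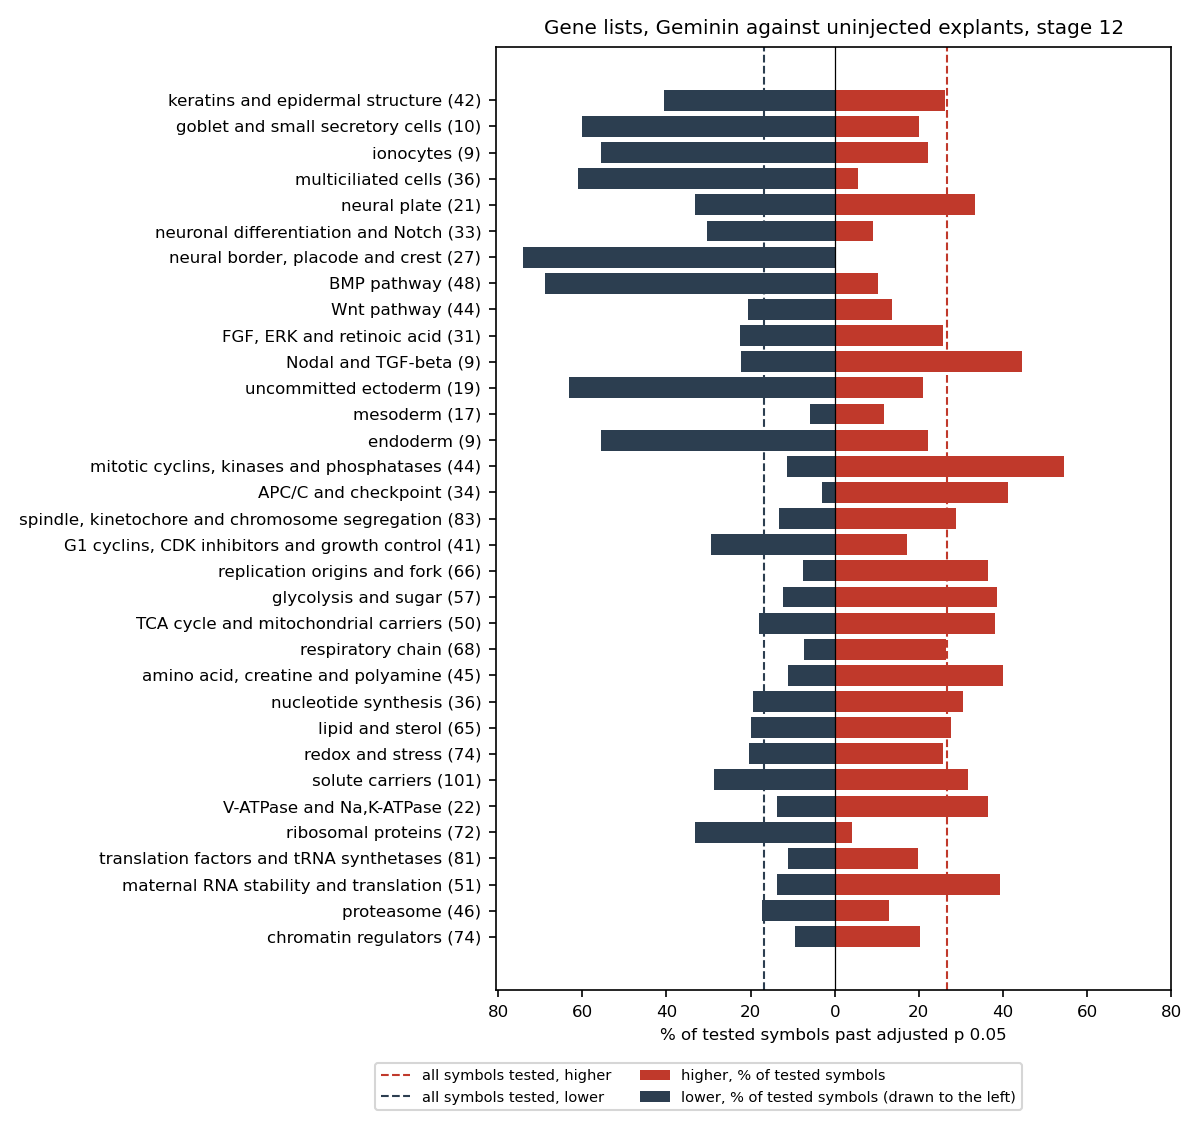
Share of the tested symbols of each list (number in brackets) that were higher (right) or lower (left) in Geminin explants at stage 12, in percent; dashed lines give the shares over all symbols, 26.6% higher and 16.8% lower. Lists of border, BMP, uncommitted ectoderm and multiciliated genes reach over 60% lower, and mitotic genes reach 54.5% higher. Lists can share genes, as the border and uncommitted ectoderm lists do.

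Of 44 genes of mitotic cyclins, kinases and phosphatases 24 were higher (54.5%) and 5 lower (11.4%), against 26.6% and 16.8% over all symbols. In the E3 pair their median difference was 0.125, near the 0.109 over all symbols. The B-type cyclin gene ccnb1.2.L was at 3487, 3127 and 2857 in injected and 1665, 1467 and 1599.5 in uninjected explants and rose by 0.99 ± 0.09 (adjusted p = 2.28e-05). The cyclin gene ccna1.L, whose product is the A cyclin of early frog embryos, was at 1263, 1928 and 1720.4 against 100.1, 410.4 and 485 and rose by 2.48. The kinase genes nek2.S, melk.L and cdk2.S fell (-0.76, -0.61 and -0.63), and cdk1.L (-0.04) and aurka.L (-0.04) did not pass. A second nek2.S probe set gave -0.28, not passing. Without the block 9 of these genes were higher and none lower, and 8 when uninjected E3 was left out too.

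Of 34 genes of the anaphase-promoting complex (APC/C) and checkpoints 14 were higher (41.2%) and 1 lower (2.94%), against 26.6% and 16.8% over all symbols. The APC/C activator cdc20.L was at 770.3, 961 and 669 against 363, 463 and 515 and rose by 0.82, the separase gene espl1.L rose by 0.86 and the subunit genes anapc16.L and anapc11.L by 0.76 and 0.59. The APC/C inhibitor gene fbxo43.L, known as Emi2, was the member that fell (-0.55), and the checkpoint kinase gene chek1.S (-0.07) did not pass. Of 83 spindle and chromosome segregation genes 24 were higher and 11 lower, close to the shares over all symbols. Survivin, birc5.L, rose by 1.44 (levels 1369, 876 and 817 against 312, 379 and 378) and the augmin subunit gene haus3.L by 1.38. The centromere gene cenpv.L fell by 2.14 ± 0.24, to 127, 133 and 138 from 793, 626 and 521. The centriole assembly genes sass6.L and cep135.L fell (-1.25 and -1.19), and the kinetochore gene ndc80.S (0.005) and condensin gene smc4.L (0.02) did not pass.

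Genes of G1 and growth control were lower in 12 of 41 cases (29.3%) and higher in 7 (17.1%), against 16.8% and 26.6% over all symbols. The anti-proliferative gene tob1.S was at 33.6, 26.5 and 39.4 in injected and 206, 132 and 140.2 in uninjected explants and fell by 1.82 ± 0.18. The Myc antagonist gene mxi1.L fell by 2.02, the stress gene gadd45a.S fell by 1.81, cyclin D1 (ccnd1.L) fell by 1.85 and myc.L fell by 1.59. Genes that favour and genes that restrain proliferation were thus both among the falls. The largest rise was in the stress gene sesn1.L, whose product restrains growth signalling, at 73.4, 86.7 and 102 against 5.1, 10.7 and 11.8 (2.04, and 1.92 on a second probe set). Also higher were btg4.L (1.4) and btg4.S (0.94), which act in removal of maternal RNA in mammals, and ccnh.L (0.76), while cdk4.S (-0.08) and tfdp1.L (0.02) did not pass.

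Of 66 genes of replication origins and forks, gmnn among them, 24 were higher (36.4%) and 5 lower (7.58%), against 26.6% and 16.8% over all symbols. The licensing factor gene cdt1.L, whose product full-length Geminin binds, was at 799, 1024 and 775 against 307, 457 and 459.8 and rose by 1.07 (0.54 on a second probe set). Genes of origin and helicase subunits that fell were mcm6.2.L, at 139, 82.9 and 112 against 303, 231 and 248 (-1.14), mcm4.L (-0.57), orc4.L (-0.74) and the GINS subunit gene gins3.L (-1.17). The values of cdc7.L (0.001), the kinase that fires origins, and orc1.L (-0.02) did not pass. Without the block 7 of the list were higher and 2 lower.

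Sugar metabolism genes were higher in 22 of 57 cases (38.6%) and lower in 7 (12.3%), with a median of 0.35. Over all symbols 26.6% were higher and 16.8% lower, with a median of 0.12. The phosphoglucose isomerase gene gpi.S was at 414, 399 and 263 in injected and 144, 119 and 161 in uninjected explants and rose by 1.23 ± 0.18. The phosphoglycerate kinase gene pgk1 was at 420.2, 401 and 310.5 against 67.4, 164 and 183 and rose by 1.44, the aldolase gene aldoc.L rose by 1.04 and the pyruvate dehydrogenase gene pdhb.L by 0.8. Lower were the glucose transporter gene slc2a2.L (-1.35) and gfpt2.L, which opens the hexosamine branch that feeds protein glycosylation, at 535, 906 and 1139.7 against 2869, 3020.3 and 2619.6 (-1.77, and -1.96 on a second probe set). Glycogen phosphorylase pygm.S gave -1.31 on one probe set and 0.66 on the other, both passing, so it has no settled direction. The phosphofructokinase gene pfkp.S (-0.01) and fbp1.L (-0.02), which work in opposite directions, did not pass. Without the block 4 of the list were higher and 4 lower, and without uninjected E3 as well 4 and 3.

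In the TCA cycle list with mitochondrial carriers 19 of 50 were higher (38.0%) and 9 lower (18.0%). Over all symbols the shares were 26.6% and 16.8%, so the lower share was close to that of all symbols. Enzymes of the cycle that rose included mdh2.L (1.12, levels 214, 676 and 442 against 78.9, 256 and 259) and dlst.S (0.62), and the aspartate aminotransferase gene got1.S rose too (0.73). The falls named by the rule were all carriers: slc25a17.L, of peroxisomes, at 79.1, 157 and 130.0 against 884, 510.0 and 534 (-2.25), slc25a22l.S (-2.08), slc25a24.S (-1.01) and the citrate carrier gene slc25a1.L (-0.97). The carrier-like gene slc25a46.S rose by 1.59. Respiratory chain genes were higher in 18 of 68 cases, a share close to that of all symbols, and lower in 5. The cytochrome oxidase gene cox5b.2.L was at 340.0, 576 and 486 against 89.2, 281 and 244 and rose by 1.24, cox7a2l.L rose by 1.08, and cox4i1.S and ndufc2.S fell (-0.72 and -0.83). Without the block 3 genes of the TCA list were higher and 3 lower, and 1 respiratory gene was higher and 1 lower.

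In amino acid, creatine and polyamine metabolism 18 of 45 were higher and 5 lower, and the falls were the larger changes. Arginase, arg1.L, was at 239.5, 241 and 309 in injected and 1449.6, 974 and 1050.1 in uninjected explants and fell by 2.06 ± 0.21. The branched-chain aminotransferase gene bcat1.L fell by 1.65 and the proline-degrading enzyme gene aldh4a1.L fell by 0.82 (-0.40 on a second probe set, not passing). The polyamine acetyltransferase gene sat1.S was at 993, 655 and 472 against 353, 218 and 238 and rose by 1.3, while sat1.L (0.04) did not pass. The creatine kinase gene ckb.L rose by 0.73. The genes mat2a.L, for making the methyl donor, and ahcy.S, for clearing the product of methyl transfer, rose by 0.58 and 0.74. Without the block 4 were higher and 3 lower, and none higher and 3 lower without uninjected E3 as well.

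Nucleotide genes were higher in 11 of 36 cases (30.6%) and lower in 7 (19.4%), close to the shares over all symbols (26.6% and 16.8%). All 3 ribonucleotide reductase genes named rose: rrm2b.S, at 1956, 1729 and 1673 against 722, 796 and 785, by 1.2 ± 0.12, rrm1.L by 0.57 and rrm2.1.L by 0.57. The purine salvage genes that fell were ada.S (adenosine deaminase), at 30.1, 64.7 and 73.6 against 254, 267 and 274 (-2.02) and pnp.L (purine nucleoside phosphorylase, -1.69). The adenylosuccinate lyase gene adsl.L, of purine synthesis, rose by 0.66, and impdh2.L (-0.01) did not pass. The probe sets of ctps2.L ran from -0.60 to 1.15, so it has no settled direction.

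Lipid and sterol genes went both ways, 18 of 65 higher (27.7%) and 13 lower (20.0%), close to the shares over all symbols (26.6% and 16.8%). The lipid droplet gene plin2.S was at 513, 754 and 568 in injected and 117, 234 and 196 in uninjected explants and rose by 1.69 ± 0.16, and plin2.L rose by 1.31. The fatty acid elongase gene elovl2.L was at 19.5, 9.07 and 7.2 against 120.2, 97.4 and 58.1 and fell by 1.93. In sterol synthesis cyp51a1.L rose by 1.25, while dhcr7.S, which makes the last step to cholesterol, was at 88.4, 50 and 40.8 against 357, 164 and 136 and fell by 1.57. The lipid phosphatase gene plpp3.S and the phosphatidylcholine synthesis gene pcyt1b.S fell (-2.89 and -1.31). Injected plpp3.S, at 2.63, 2.35 and 7.47, had a mean under the 5th percentile of all values (5.59), so low signal bounds its fall.

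Redox and stress genes had a median of 0.00, with 19 of 74 higher (25.7%) and 15 lower (20.3%), also close to the shares over all symbols. Mitochondrial members that rose were prdx3.S (by 0.92) and prdx3.L (by 0.67), both peroxiredoxin genes, and the thioredoxin reductase gene txnrd2.S (by 0.9). Members of the ER stress response that fell were hspa5.S (BiP), at 288, 265 and 239.8 against 1252, 690.2 and 675 (-1.61), hspa5.L (-1.51) and dnajb9.L (-1.39). The haem oxygenase gene hmox1.L (0.02) did not pass. Of 101 solute carriers 32 were higher and 29 lower, the latter share above the 16.8% over all symbols. The amino acid carrier gene slc38a2.L fell by 3.12 and slc6a14.2.L, of another amino acid carrier family, rose by 1.47. The Golgi UDP-galactose carrier gene slc35a2.L fell by 1.79, and the phosphate carrier gene slc20a1.L rose by 0.88. Of 22 proton and sodium pump genes 8 were higher and 3 lower, the largest fall being in atp6v1al.L (-1.67).

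In the list of maternal RNA stability and translation 20 of 51 were higher (39.2%) and 7 lower (13.7%), against 26.6% and 16.8% over all symbols. The gene lsm14b.L, an oocyte RNA-binding protein, was at 253, 534 and 417 against 72.5, 203 and 180.1 and rose by 1.36. The genes zfp36l2.S, zfp36l1.S and zfp36.L, whose products bind AU-rich elements and speed RNA decay, fell (-1.42, -1.51 and -0.93), and celf1.L (-0.002) did not pass. Ribosomal protein genes were lower in 24 of 72 cases and higher in 3, with no change reaching 2-fold. The counts depended on scaling, with 41 lower on the deposited scale, and without the block and uninjected E3 none passed. Translation factors were higher in 16 of 81 cases and lower in 9, with eif4e3.L (1.05) and eif4g1.S (-0.88) as the clearest of each. Proteasome genes were higher in 6 and lower in 8 of 46, and chromatin regulators higher in 15 and lower in 7 of 74. In the translation, proteasome and chromatin lists the higher share was under the 26.6% over all symbols. The lower share was under the 16.8% over all symbols for translation and chromatin genes, and close to it for proteasome genes. None of these lists thus stood out from all symbols by a larger share of changed genes. Among the chromatin genes dnmt1.L, the maintenance DNA methyltransferase gene, rose by 0.75, the H4 lysine methyltransferase gene kmt5a.S fell by 1.61 and kdm1a.S (-0.01) did not pass.

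Of the 186 genes named here that passed, 16 did so less firmly: leaving out 1 experiment ended the call for acvr2b.L, aldh4a1.L, atp6v1a.L, bmp1.L, bmp2.L, cyp26a1.S, fbxo43.L, galnt11.L, ift27.L, jag1.L, lin28b.S, mcm4.L, melk.L, orc4.L, slc18a2.L and sox3.L, with no change of sign. None of them changed by more than 1.04 on the log2 scale.

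**Figure D4:**
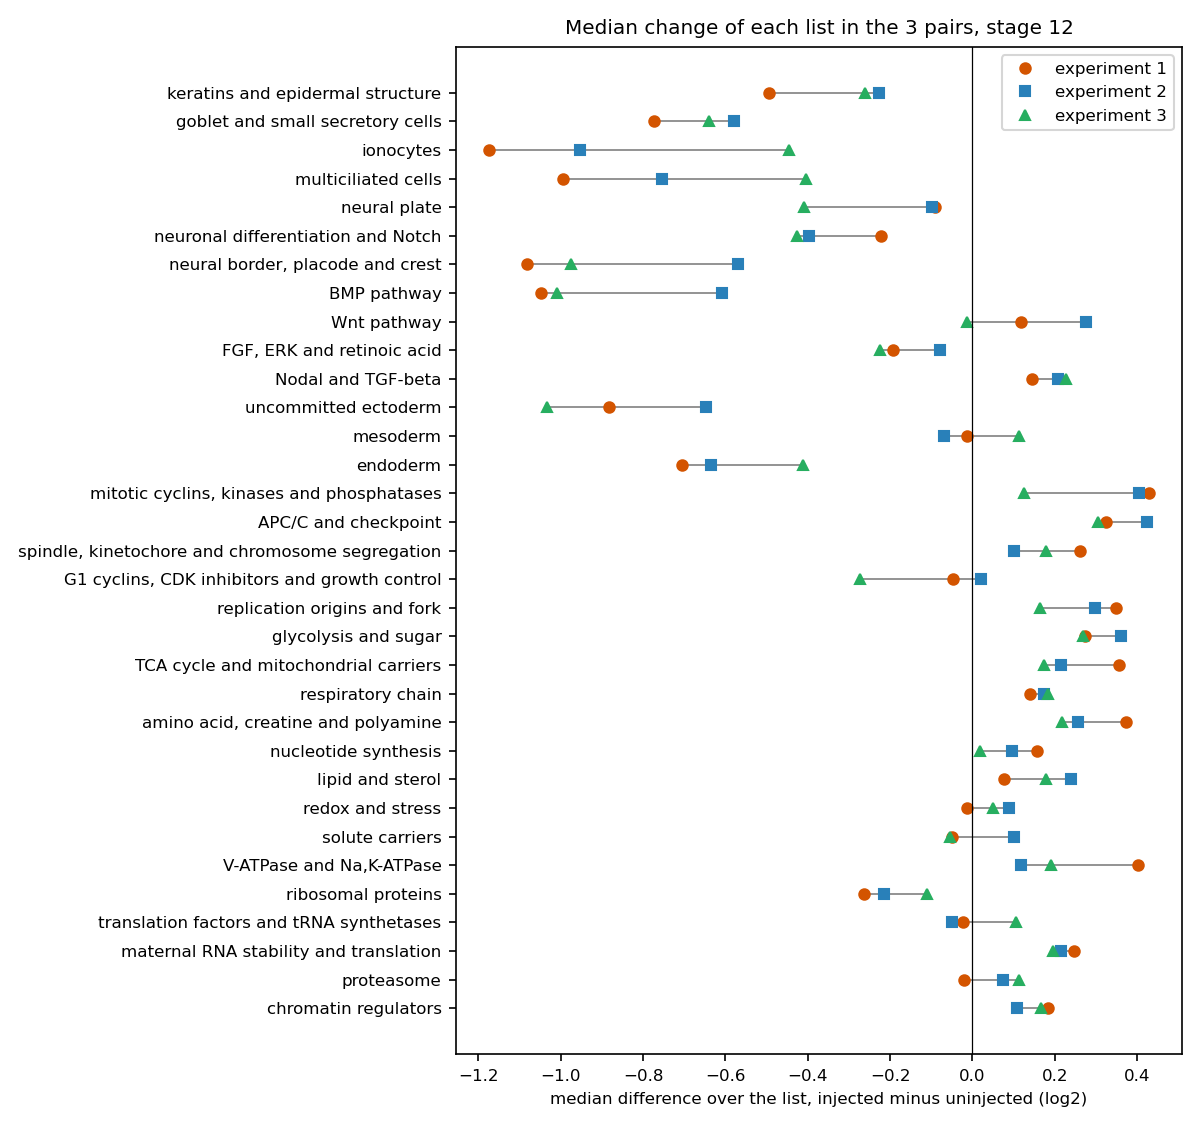
Median difference of each list, injected minus uninjected (log2), within the pair of experiments 1, 2 and 3. The border, BMP and multiciliated lists lie below 0 in all 3 pairs, and the sugar, mitotic and replication lists above 0 in all 3. The solute carrier and translation lists lie on both sides of 0. Over all symbols the medians were 0.138, 0.102 and 0.109 in experiments 1, 2 and 3. In experiment 3 the mitotic (0.125) and replication (0.164) medians were thus near that of all symbols.

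Levels in the early gastrula arrays are given for some of the named genes, picked after their values were seen. The uninjected stage 12 arrays enter both the Geminin difference and any difference between uninjected stages, so levels are set side by side with no test between them. Among genes higher in Geminin explants at stage 12, ccnb1.2.L was at 5022, 4888 and 5724 in uninjected explants at stage 10.5, wee2.L at 689, 518 and 994 and plin2.S at 823, 544 and 951. Against these early levels, each of the 3 genes was lower in all uninjected stage 12 arrays. The gpi.S gene was at 397, 518 and 815 early and rrm2b.S at 2949, 2398 and 4003, both also above their uninjected stage 12 levels. Other rises ran differently: rara.L was at 15.8, 21.7 and 37.8 early, below all its uninjected stage 12 levels (44, 61.2 and 63.8), and bmp1.L was at 10.7, 8.65 and 9.64, also below them.

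Among genes lower in Geminin explants, tbx3.S was at 37.9, 26.1 and 25.2 in uninjected stage 10.5 explants, itln1.L at 21.8, 33.5 and 23.3 and dhcr7.S at 36.4, 43.5 and 41.1. All 3 were thus far higher in uninjected explants at stage 12. Injected stage 12 levels of tbx3.S lay near those early values, and those of itln1.L lay between the early and the uninjected stage 12 values. Arginase differed, since arg1.L was at 778, 700.5 and 309 in uninjected and 66.3, 72.8 and 53.4 in injected explants at stage 10.5 already. For foxi1.L the early uninjected levels were 575, 1013 and 399, for sox2.L 249.6, 223 and 269 and for dlc.L 190.3, 200.1 and 149, all above the uninjected stage 12 levels. The gatm.L levels were 1073, 1445 and 1137 early, overlapping those at stage 12.

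**Figure D5:**
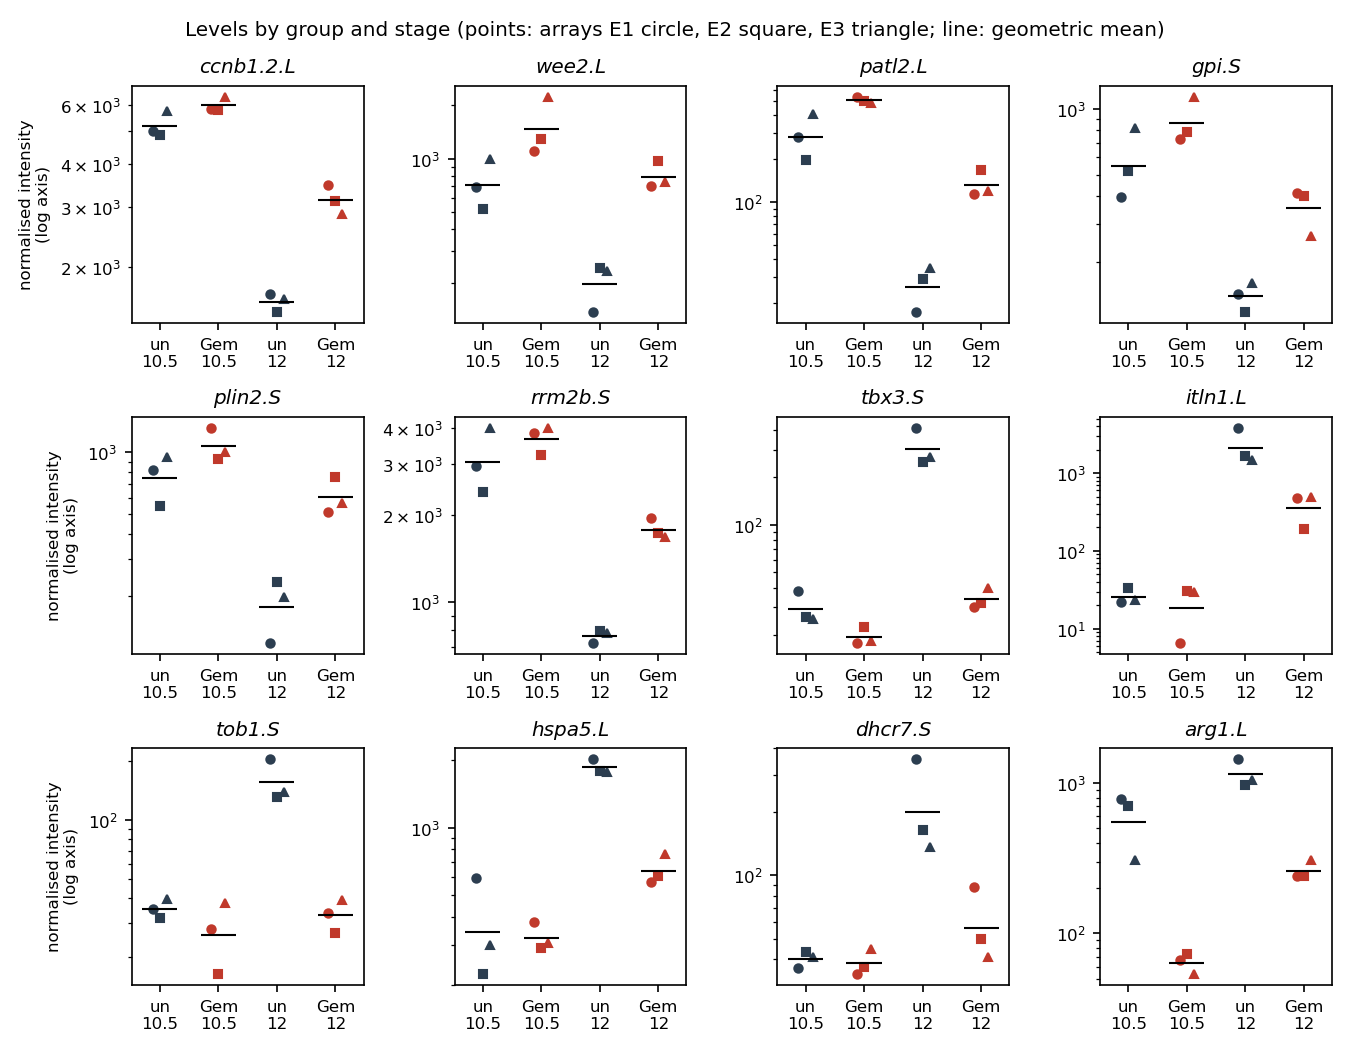
Normalised intensity (log axis) of 12 genes in uninjected (un) and Geminin (Gem) explants at stages 10.5 and 12, with a point per array and a line at the geometric mean. The genes of the top row and plin2.S and rrm2b.S are lower in uninjected explants at stage 12 than at 10.5, and tbx3.S, itln1.L, tob1.S, hspa5.L and dhcr7.S are higher.

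At stage 10.5 itself 10.4% of probe sets passed, 3.31% higher and 7.06% lower. Tested within the shared fit, 5.77% of probe sets differed between the stages: 209 probe sets had a higher (1.8%) and 461 a lower (3.97%) Geminin difference at stage 12 than at stage 10.5. Lists differed in this count. Of the multiciliated genes 13 of 36 had a lower difference at stage 12. A higher one was found for 11 of 44 mitotic and 6 of 21 neural plate genes. Such a higher difference can also come from a fall that was larger at stage 10.5. At that stage 10 neural plate genes were lower and 1 higher, and 9 mitotic genes were lower and 5 higher. Low signal limits the multiciliated count, since some of these genes could hardly fall at stage 10.5. In uninjected explants of that stage rsph1.L was at 2.63, 11.8 and 2.17 and cfap52.S at 7.17, 11.5 and 20.27. Of BMP genes 20 of 48 were lower at stage 10.5 already (against 7.06%), and 5 had a lower difference at stage 12. Early falls were not particular to the BMP list, and lists can share genes. At stage 10.5, 15 of 27 border genes, 10 of 19 uncommitted ectoderm genes and 12 of 33 neuronal and Notch genes were lower. So were 14 of 42 keratin and junction genes, but only 2 of 36 multiciliated and 1 of 10 goblet and small secretory genes. Over all symbols, 2.08% had a higher and 4.17% a lower difference at stage 12 than at stage 10.5. Of solute carriers 10 of 101 had a lower and 4 a higher difference, of redox and stress genes 6 of 74 a lower and 2 a higher one, of lipid genes 5 of 65 a lower and 1 a higher one, and of sugar genes 2 of 57 a higher one and none a lower one.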

How the data were processed

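The authors deposited 1 intensity per probe set and array, on a linear scale. For probe summary, background correction and scaling, the labels and the file name no method. The uninjected stage 12 array of experiment 2 is described as stage 10.5 in one label, whereas its title and stage label, used here, say stage 12. Of 15491 probe sets the dimmest 25% (3873) were left out. Of 15491, 9304 have 1 gene symbol, 195 several and 5992 none; only the first are named.

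log2(intensity + 16) was quantile normalised over 12 arrays, so fold changes understate dim genes; printed intensities are normalised values less 16. Tests were limma's (version 3.58.1, R 4.3.3, lmFit and eBayes with a trend), with experiment within stage as a block and 4 residual degrees of freedom. Benjamini-Hochberg adjustment ran over 11618 probe sets at 0.05. A check on simulated data drew independent noise for every array, so it could not show what follows if E2 and E3 are not independent. Deviations of paired stage 12 arrays correlated at 0.693, 0.571 and 0.424, yet injected E3 deviated more with uninjected E2 (0.555). The labels do not say whether experiments used separate females, so p-values may measure technical spread.

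The members and lists were chosen with earlier results of these data known. Named genes are ranks 11 to 25 per direction (passing, same sign in 3 pairs) and, per list, up to 6 passing members with the smallest p, up to 4 per direction, and up to 3 not passing with the smallest change. Lists use the brightest probe set per symbol. Names caught only by pattern were removed by hand. Probes can cross-hybridise between copies. Alternatives were 2 other scalings, pseudocounts of 1 and 64, other filters, no block, 6 arrays alone, E2 and E3 averaged, and arrays left out. No sequence or position was used here.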

Additional observations from a re-analysis of the deposited data

Results flagged for a closer look

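For 78 of the 227 genes named, the Geminin difference itself differed between the stages, against 5.77% of all tested probe sets. This is by the interaction contrast of limma's fit (Benjamini-Hochberg adjusted p from 0.000799 to 0.0497, SE from 0.12 to 0.43, 6 pairs). Most of these genes were picked for their stage 12 change. That choice favours a difference from stage 10.5, so the count is a description and no further support. Values are the stage 12 difference minus the stage 10.5 difference on the log2 scale. This value was negative for 51 genes and positive for 27. Where it has the sign of the stage 12 change and is larger, the stage 10.5 difference had the opposite sign. That was so for cyp26a1.S, jag1.L, fbxo43.L and orc4.L, among others. Low signal bounds 23 of the 51: had these genes fallen at stage 10.5 by as much as at stage 12, they would have ended under the 5th percentile of all values.

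The bounded genes of the epidermis and of signalling were itln1.L (-2.33), tbx3.S (-2.32), tbx2.L (-2.01), kit.S (-2.52), kit.L (-1.73), otogl2.L (-2.31), ppl.L (-2.1), agr2.S (-1.92), cfap161.L (-2.07), foxn4.S (-1.7), bmp7.1.L (-1.46), hes5.6.L (-1.1) and msx1.S (-1.01). Those of metabolism and growth control were plpp3.S (-1.8), gdpd1.L (-1.79), capn8.1.L (-1.78), sult6b1.5.L (-1.72), slc38a2.L (-1.7), elovl2.L (-1.69), bcat1.L (-1.64), tob1.S (-1.54), dhcr7.S (-1.52) and, of muscle, tnni2.S (-2.7).

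Signal did not bound the others that were lower. Among epidermal and ciliary genes these were lmo4.2.L (-2.08), ca12.L (-1.94), rsph9.L (-1.53), cfap52.L (-1.36), tfcp2l1.S (-1.31), galnt16.L (-0.96), pkp2.L (-0.93) and foxa1.S (-0.80). In signalling they were dvl3.L (-1.51), myc.L (-1.15) and rdh10.L (-1.0). In the cell cycle they were fbxo43.L (-1.75), cep135.L (-1.58), orc4.L (-1.56) and sass6.L (-1.18). In the secretory pathway and metabolism they were dnajb9.L (-1.89), hspa5.L (-1.43), hspa5.S (-1.36), dnajc3.L (-1.4), sec22b.L (-1.31), manf.S (-1.19), slc35a2.L (-1.19), pdia4.L (-1.13), cope.S (-0.94), calr.S (-0.75), sec61a1.S (-0.73), pcyt1b.S (-1.28) and slc25a1.L (-0.83).

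Positive values in growth control, the cell cycle and replication were ccna1.L (1.65), sesn1.L (1.48), cep20.L (1.17), nhej1.S (1.18), haus3.L (1.15), rrm2b.S (0.93), wee2.L (0.88), ccnb1.2.L (0.79) and cdt1.L (0.77). In differentiation and signalling they were cyp26a1.S (2.08), otx1.L (1.73), pik3r3.S (1.72), vegt.L (1.57), jag1.L (1.5, bounded by low signal at stage 12), fzd7.L (1.45), tdgf1.3.L (1.39), irx2.L (1.15) and cldn6.1.L (0.95). The remaining ones were tspan1.S (1.83), tspan1.L (1.38), reep6.L (1.41), washc3.L (1.36), slc16a3.S (1.36), chst13.S (1.21), plin2.S (1.2), klhdc10.L (1.09) and cox7a2l.L (0.87). For irx2.L both differences were falls, larger at stage 10.5.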

How the results depend on the processing

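No named gene that passed changed sign under an alternative in which it was tested. Of the 186 named genes that passed, 174 to 185 still passed under each alternative that kept the block and the 25% filter or no filter. With a filter on the lowest 50%, 148 passed and the others were not tested. The experiment numbers are the study's pairing. Without the replicate block 132 of the 186 passed, and 112 without the block and uninjected E3. The count of probe sets then fell from 4781 to 1509 (615 higher, 894 lower) and to 1162 (466 higher, 696 lower). With the 50% filter 1344 probe sets were lower. Leaving out 1 experiment gave 3283 to 4416 passing, 1683 to 2497 higher and 1582 to 1919 lower. The fit of the 6 arrays alone gave 3580, and E2 and E3 averaged into 1 pair gave 4085.

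Rises made up 57.2% of calls, but 49.6% on the deposited scale and 51.9% with median centring. The median of all probe sets was 0.09, 0.03 and 0.04 under the 3 scalings. Ribosomal protein genes that were lower numbered 24, 41 and 36. The medians of the solute carrier, redox, blood, mesoderm and translation lists lay near 0, and their sign depended on the scaling, on the experiment left out or on averaging E2 and E3.

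The count of stage differences was least stable: 670, against 437 with a pseudocount of 1, 379 with the 50% filter, 34 without the block and 39 without the block and uninjected E3. Leaving out 1 experiment gave 248 to 1033. The causes were not tested. The number of arrays and signal near the floor limit the precision.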

Other observations

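The secretory pathway was read with lists drawn up after values of these data were seen, so their counts are a description. Of 43 genes of protein folding in the ER 26 were lower and 1 was higher at stage 12, against 16.8% lower over all symbols. Of the 33 members that are in no other list 20 were lower. These were also chosen after values were seen, so they are no separate check. The disulfide isomerase gene pdia4.L was at 137, 95.4 and 142 in injected and 513, 379 and 407 in uninjected explants and fell by 1.68 ± 0.16. The lectin chaperone gene calr.S fell by 1.09, the ER cochaperone gene dnajc3.L fell by 1.45 and manf.S, a secreted ER stress protein, fell by 1.29. Of 71 genes of ER entry and vesicle coats 36 were lower and 3 higher, among them sec61a1.S, the channel into the ER (-0.92), the coat subunit gene cope.S (-1.28) and the fusion protein gene sec22b.L (-1.04). Of 10 Golgi nucleotide-sugar transporters 6 were lower and 2 higher. Without the block and uninjected E3, 6 folding, 11 entry and coat and 4 transporter genes were lower. On the deposited scale the folding and entry lists held 27 and 44 lower.

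Genes whose products are known from oocytes and eggs moved the other way, with 20 of 23 higher and 1 lower, against 26.6% and 16.8% over all symbols. This list was also drawn up after values were seen, so its counts are likewise a description. Its 9 members in no other list, chosen in the same way, held 7 that were higher. The histone chaperone gene npm2.L (nucleoplasmin) was at 1152, 559 and 494 in injected and 328, 241 and 248 in uninjected explants and rose by 1.29 ± 0.16. The meiotic kinase gene mos.L rose by 1.55, the egg coat gene zpax.L by 1.06, ybx2.L, which packs stored RNA, by 1.03 and lsm14b.S by 1.7. At stage 10.5, 9 of the 23 were higher and none lower, against 236 higher and 430 lower among all 6146 symbols. Without the block and uninjected E3, 8 were higher. Of 9 T-box genes tbx3.S, tbx3.L and tbx2.L fell and both vegt copies rose. The lactate and monocarboxylate transporter gene slc16a3.S rose by 1.21.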
